A study of Mus musculus with 2 samples.

Results

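The Iroquois homeobox genes Irx1, Irx2, Irx3, Irx4, Irx5 and Irx6 are the 6 members of a mouse transcription factor family, taken by symbol from 22401 features counted in single cells of the embryonic heart. All 6 were among the features. The family was picked by name with earlier results of these libraries known, so the differences between libraries below are descriptions. Whole embryonic hearts at E11.5 were made into single-cell suspensions and sequenced as 2 libraries, 1 for each genotype, with a kit that counts the 3′ ends of transcripts by unique molecular identifiers (UMIs). The library called Control had the genotype Hand2fx/+R26RmTmG/wt, with 1 floxed Hand2 allele, the mTmG reporter and no Cre listed. The library called H2CKO had the genotype Nfatc1Cre/wtHand2fx/fxR26RmTmG/wt, in which Nfatc1-Cre, active in the endocardium, can delete both floxed alleles of Hand2 and switch the reporter to GFP. Both came from one cross, and both carried at least 1 floxed Hand2 allele and 1 reporter allele. Only H2CKO carried Cre, so Cre itself and the loss of Hand2 cannot be told apart. The number of embryos behind each library is not given in the sources used here. With 1 library per genotype no difference between genotypes could be tested: the intervals below are exact 95% intervals for counting error only, and genotype cannot be told apart from library.

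Iroquois proteins carry a homeodomain of the TALE class, with extra residues in the loop between its first helices, and act mostly as repressors, at some genes as activators. The genes lie in a pair of clusters that arose by duplication. In the heart Irx4 is known as a ventricular gene whose expression depends on Nkx2-5 and Hand2. Irx3 is known for the trabecular and conducting ventricular myocardium, where it raises Gja5 and lowers Gja1. Irx5 is known in the endocardium and, later, for the gradient of potassium current across the ventricular wall, and Irx1 and Irx2 for the ventricular septum.

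In GRCm38 one cluster lies on chromosome 13 and holds Irx1 (ENSMUSG00000060969, chr13:71957921-71963723, minus strand), Irx2 (ENSMUSG00000001504, chr13:72628820-72634198, plus strand) and Irx4 (ENSMUSG00000021604, chr13:73260479-73269608, plus strand). The other lies on chromosome 8 and holds Irx3 (ENSMUSG00000031734, chr8:91798525-91802067, minus strand), Irx5 (ENSMUSG00000031737, chr8:92357625-92376286, plus strand) and Irx6 (ENSMUSG00000031738, chr8:92674288-92680956, plus strand). Gaps of 665.1 kb and 626.3 kb separate the chromosome 13 genes, and gaps of 555.6 kb and 298.0 kb the chromosome 8 genes. Irx3 overlaps the antisense gene Irx3os, which is not a feature analysed here.

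The members are most alike in the homeobox. The coding stretch of 60 bases most alike in all 6, from the GENCODE M21 transcripts, is shown because it tells how near to each other the counted genes are. Bases that differ from Irx5 are in capitals.
Irx5, chr8:92359696-92359755, plus strand, exon 2: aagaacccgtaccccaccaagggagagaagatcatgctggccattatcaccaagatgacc
Irx2, chr13:72630733-72630792, plus strand, exon 2: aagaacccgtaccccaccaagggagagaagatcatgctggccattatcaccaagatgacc
Irx1, chr13:71960052-71960111, minus strand, exon 2: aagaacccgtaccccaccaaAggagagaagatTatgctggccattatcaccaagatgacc
Irx4, chr13:73267592-73267651, plus strand, exon 5: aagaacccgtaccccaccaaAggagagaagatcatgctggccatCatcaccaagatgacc
Irx6, chr8:92677305-92677364, plus strand, exon 4: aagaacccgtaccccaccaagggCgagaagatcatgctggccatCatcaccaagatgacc
Irx3, chr8:91800556-91800615, minus strand, exon 2: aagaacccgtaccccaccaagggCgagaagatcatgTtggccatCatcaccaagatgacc
Irx2 and Irx5, from different clusters, were identical over the stretch, and the 15 pairs of members differed at 0 to 5 of the 60 bases. The longest exact stretch shared by any pair of transcripts was 88 bases, between Irx3 and Irx6, against a transcript read of 91 bases. In the last 500 bases of the transcripts, where a 3′ assay mostly reads, the longest shared stretch was 17 bases.

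The libraries held 195825720 UMIs in Control and 201477256 in H2CKO. The kept cells numbered 8920 in Control and 11534 in H2CKO, with a median of 16252 and 13432 UMIs per cell. In those cells the members had few UMIs: Irx4 had 2869 in Control and 4395 in H2CKO, Irx5 had 535 and 844, Irx2 had 153 and 1189, Irx1 had 134 and 1020, Irx3 had 192 and 643, and Irx6 had 100 and 21. The libraries shared 57 cell barcodes of 14114 and 13885. They stood apart in quality and makeup: median mitochondrial shares in ventricular-like cells were 4.77% in Control and 7.15% in H2CKO, most erythroid clusters held nearly only cells of 1 library, and atrial-like cells numbered 104 in Control and 2 in H2CKO. Cell groups were named from marker lists after clustering that left out all Irx genes and Hand2, so no member shaped them. Levels are given in CPM, the UMIs of a gene scaled to counts per 1e6 UMIs of the group.

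The members differed in where they were found. In Control, Irx4 was highest in the ventricular-like cells and their neighbours, with 52.4 CPM in 1242 ventricular-like cells, 58.6 CPM in an unnamed myocardial cluster led by Hand1 (249 cells) and 55.4 CPM in the atrioventricular-canal-like cells (99 cells). Those 3 levels did not differ beyond their intervals (50.2 to 54.8, 52.7 to 65.1 and 45.9 to 66.2 CPM). Shallow cardiomyocyte-like cells, with a median of 1586 UMIs, had 28.8 CPM (24.1 to 34.3), and outflow-like myocardium had 15.9 CPM (13.6 to 18.3). Atrial-like cells had 2.29 CPM, from 5 UMIs, so ventricular-like cells were 22.9-fold higher (9.79 to 70.5). Erythroid cells, which should lack the gene, gave a background of 0.585 CPM. Of the ventricular-like cells 70.4% held an Irx4 UMI, against 1.07% of the erythroid cells, at median depths of 27660 and 18377 UMIs. The outflow-like level came from 1 of its clusters: the cluster led by Rspo3 and Cox4i2 had 18.0 CPM and the cluster led by Crabp1 and Rgs5 had 3.08 CPM.

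Irx5 and Irx6 were highest in a single endothelial group. In Control, Irx5 reached 218 CPM (197.9 to 239.6) in the endocardial-like cells (132 cells, led by Sost, Klhl4 and Emcn and holding the endocardial marker Npr3) and 1.19 CPM (0.387 to 2.78) in another endothelial cluster led by Stmn2, Wnt4 and Pthlh (240 cells). The endocardial-like level was 183-fold higher (77.8 to 566.6), and the 5 Irx5 UMIs of the Wnt4-led cluster all lay in 1 cell. The name endocardial-like rests on a median log2 fold of 0.56 for 8 markers over the other endothelial cells, with 1 marker among the leading genes. Another of these markers, Gata4, was higher in the Wnt4-led cluster, at 223.9 CPM against 107.8 CPM in Control. Irx6 was at 46.0 CPM (37.1 to 56.5) in the endocardial-like cells and had no UMI in the Wnt4-led cluster. The interval of that ratio had a lower end of 51.3. The 10 vascular endothelial-like cells of Control held 1 Irx5 UMI and no Irx6 UMI. The endocardial-like cells held no UMI of Irx1, Irx2 or Irx4 in Control, and 10 UMIs of Irx3 (5.06 CPM). The exact interval of a count of 0 reached 1.87 CPM in those cells. Irx5 was also found in ventricular-like cells, at 1.13 CPM, so the endocardial-like level was 193.5-fold higher (141.3 to 271.3).

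Irx1, Irx2 and Irx3 were low in Control everywhere. In ventricular-like cells they had 2.44, 2.86 and 2.57 CPM, and Irx3 had its highest Control level in the atrioventricular-canal-like cells at 6.98 CPM, from 15 UMIs, an interval (from 3.91 CPM up) that overlaps that of the endocardial-like cells (2.43 to 9.30). Mesenchymal-like cells had at most 1.39 CPM of any member in Control, from Irx4, and erythroid cells at most 0.585 CPM. Epicardial-like cells had 0.978 to 1.13 CPM of Irx1, Irx3 and Irx4 in Control.

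**Figure D1:**
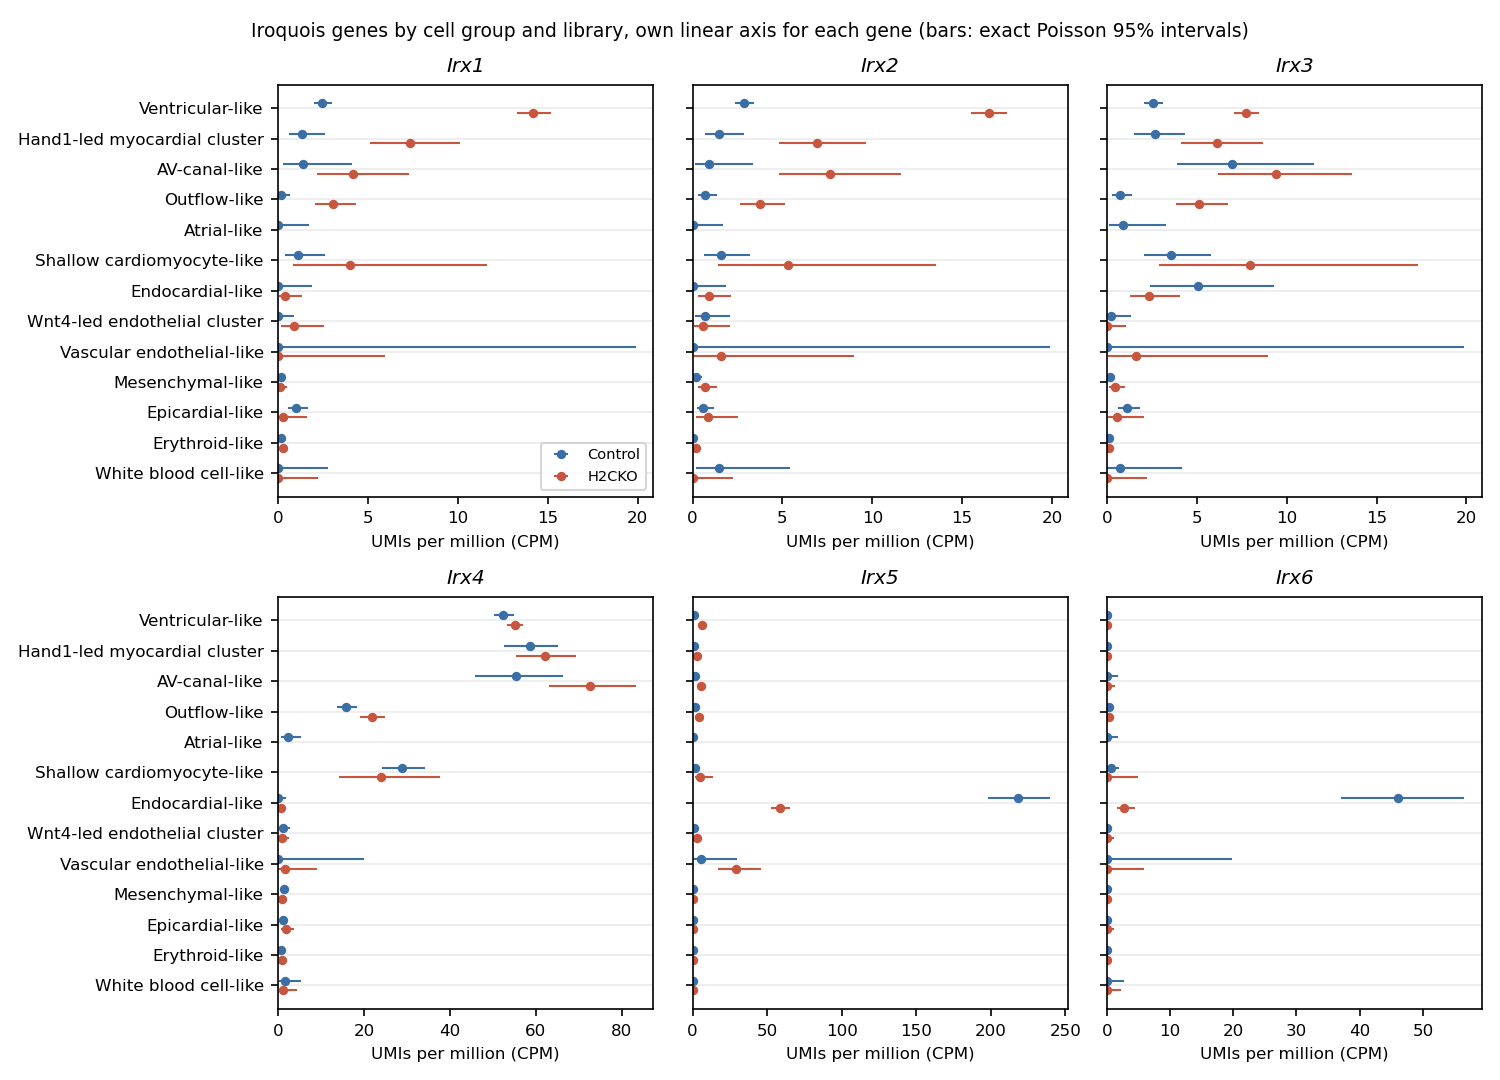
Level of each Irx gene (x axis, CPM, a linear axis for each gene) in each cell group (y axis) in Control (blue) and H2CKO (red), with exact Poisson 95% intervals; groups with under 10 cells in a library have no point there. Irx4 is highest in the ventricular-like and nearby myocardium in both libraries, Irx5 and Irx6 are highest in the endocardial-like cells of Control, and Irx1 and Irx2 are highest in the ventricular-like cells of H2CKO.

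Hand2, the gene targeted by the floxed allele, was read first as a check of the labels. In the endocardial-like cells it had 189.7 CPM in Control and 14.2 CPM in H2CKO, and in the Wnt4-led cluster its Control level was 254.0 CPM. In ventricular-like cells, which Nfatc1-Cre should leave alone, it had 73.1 and 72.7 CPM. A 3′ assay can still count 3′ sequence of a deleted gene, so these values show transcript and not protein.

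In the endocardial-like cells Irx5 and Irx6 were both lower in H2CKO. Irx5 went from 218 CPM (431 UMIs in 132 cells) to 58.5 CPM (321 UMIs in 432 cells), 3.73-fold lower (3.22 to 4.32). Irx6 went from 46.0 CPM (91 UMIs) to 2.73 CPM (15 UMIs), 16.8-fold lower (9.69 to 31.3). On the log2 scale with 5 CPM added the differences were -1.81 and -2.72. Of the 6 members these were the 2 that reached the minimum of 20 CPM and 20 UMIs in the library with more, and both were past 2-fold lower. Among the 6338 features that reached it, 9.37% were past 2-fold lower and 1.48% past 2-fold higher, and the median difference was -0.28. Irx6 reached the minimum through its Control level alone, and the count of 2 is a description. The size of both differences depended on how the endothelial cells were divided. Over all endothelial-like cells together, Irx5 was at 68.7 and 36.7 CPM, 1.87-fold lower (1.62 to 2.16) and not past 2-fold, and Irx6 at 14.3 and 1.57 CPM, 9.11-fold lower (5.24 to 16.9). With endocardial-like cells picked cell by cell from marker levels (352 and 264 cells), Irx5 was at 74.8 and 31.9 CPM and Irx6 at 16.0 and 2.36 CPM.

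The share of cells with a UMI was lower in H2CKO for both genes as well. In Control 62.1% (53.3 to 70.4) of the endocardial-like cells held an Irx5 UMI, and in H2CKO 41.2% (36.5 to 46.0). The median cell had 12785 UMIs in Control and 10348 in H2CKO. After thinning to 5000 UMIs a cell, which left out 12 and 28 shallower cells, the shares were 46.7% and 21.5%. For Irx6 they were 33.3% (25.4 to 42.1) and 2.31% (1.12 to 4.22), and after thinning 14.2% and 1.24%. The shares in erythroid cells were at most 0.241% for Irx5 and 0.0368% for Irx6. One Control cell held 23 Irx5 UMIs, and the highest count in H2CKO was 9.

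Both genes were found in the same Control cells. Of 82 Control endocardial-like cells with an Irx5 UMI, 40 also held one of Irx6 (48.8%, 37.6 to 60.1), and of 50 without, 4 did (8%, 2.22 to 19.2). The first set was deeper, with a median of 15218 UMIs against 8800. In H2CKO 5 of 178 cells with an Irx5 UMI held one of Irx6 (2.81%, 0.918 to 6.43), and 5 of 254 without (1.97%, 0.642 to 4.53). Irx3, the third gene of the cluster, had 5.06 CPM in Control and 2.37 CPM in H2CKO, a ratio whose interval holds 1 (0.190 to 1.19, H2CKO over Control).

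Reporter UMIs divided the endocardial-like cells of H2CKO without dividing their Irx5. The 254 cells with a GFP UMI had 57.3 CPM of Irx5 (49.7 to 65.8) and the 178 cells without had 60.6 CPM (50.3 to 72.5), a ratio of 0.945 (0.750 to 1.20). Irx6 had 1.71 CPM (6 UMIs) and 4.55 CPM (9 UMIs), a ratio of 0.376 (0.110 to 1.18). Hand2 had 9.98 and 21.7 CPM, a ratio of 0.459 (0.285 to 0.735). In cells without a GFP UMI both Irx5 and Hand2 were thus below their Control intervals too. GFP UMIs do not mark recombined cells alone: 25 of the 132 Control endocardial-like cells, which carry no Cre, also held one, and their Irx5 was at 243.8 CPM. A recombined cell may also hold none, since the median depth of the cells without one was 9278 UMIs. In the Wnt4-led cluster Irx5 was at 3.2 CPM in H2CKO, and Irx6 again had no UMI (3 UMIs would be 0.872 CPM). Hand2 was there at 254.0 CPM in Control and at 5.99 CPM in the H2CKO cells with a GFP UMI. Of the 282 H2CKO cells of that cluster 247 held a GFP UMI, and GFP was at 1639 CPM there and at 878.6 CPM in the endocardial-like cells. The name endocardial-like rests on markers and does not say that the Wnt4-led cluster lies outside the endocardium. The 38 vascular endothelial-like cells of H2CKO held 18 Irx5 UMIs (29.0 CPM). Control had 10 such cells, too few to set beside them.

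**Figure D2:**
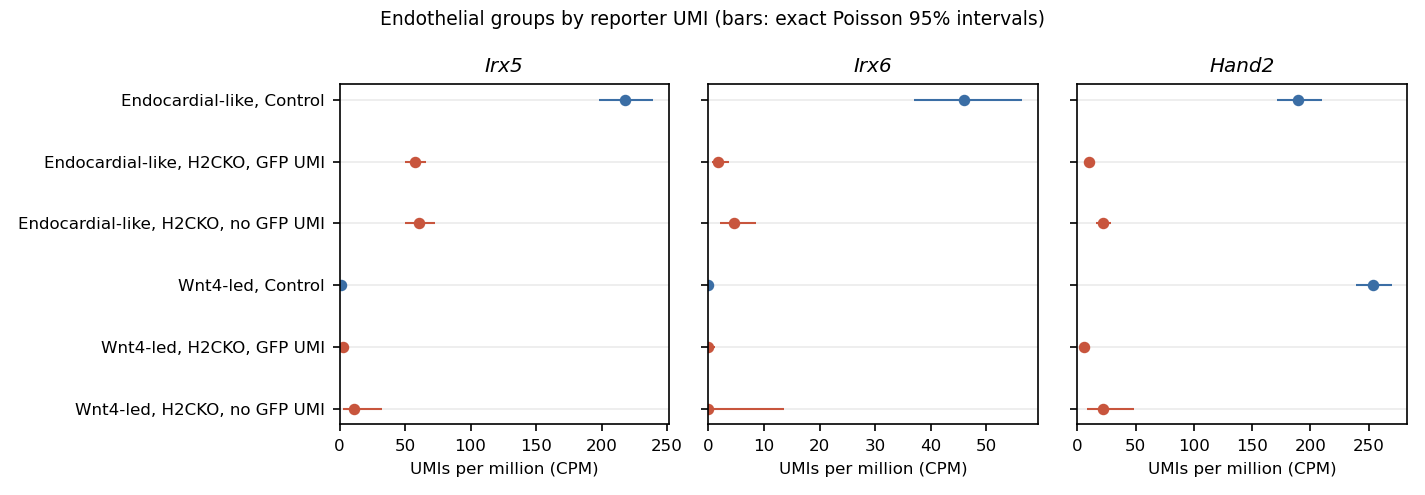
Levels of Irx5, Irx6 and Hand2 (x axis, CPM) in the endocardial-like cells and in the Wnt4-led endothelial cluster (y axis), with H2CKO cells divided by whether they hold a GFP UMI; bars are exact Poisson 95% intervals. Irx5 is at 218 CPM in Control endocardial-like cells and at 57.3 and 60.6 CPM in the H2CKO cells with and without GFP, and the Wnt4-led cluster has Hand2 but hardly any Irx5 in Control.

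Other markers differed in the same cells. The summed level of 12 endothelial markers was 3591 CPM in Control and 3297 CPM in H2CKO, the endothelial cadherin gene Cdh5 was at 402.2 and 291.5 CPM, and Emcn, which encodes endomucin, at 383.0 and 717.0 CPM. The 12 mesenchymal markers summed to 1817 and 538.0 CPM, with none at 0 in either library. The 7 erythroid markers in the files summed to 25715 and 47450 CPM, also with none at 0. The 10 white blood cell markers summed to 7.59 and 27.0 CPM, with 6 at 0 in Control and 1 in H2CKO, and the 6 megakaryocyte markers to 9.61 and 30.4 CPM, with 3 at 0 in Control. The part of these differences in the Irx5 and Irx6 values was not tested. Among cells with at most 5% mitochondrial UMIs Irx5 was at 221.3 CPM in 118 Control cells and 60.2 CPM in 213 H2CKO cells, and Irx6 at 46.6 and 2.59 CPM, so both were as far apart there.

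In the myocardium 4 members were higher in H2CKO, Irx5 among them. In ventricular-like cells Irx1 had 2.44 CPM (93 UMIs in 1242 cells) in Control and 14.2 CPM (913 UMIs in 2954 cells) in H2CKO, 5.83-fold higher (4.70 to 7.29). Irx2, its neighbour in the chromosome 13 cluster, had 2.86 and 16.5 CPM, 5.76-fold higher (4.73 to 7.09). Irx3 had 2.57 and 7.73 CPM, 3.01-fold higher (2.42 to 3.78). Irx5 had 1.13 and 6.17 CPM, 5.48-fold higher (3.99 to 7.69). Irx4, the member with the most UMIs there, had 52.4 and 55.2 CPM, a ratio of 1.05 (0.996 to 1.11). Irx6 had 0 and 2 UMIs. The intervals of 4 members lay above 1, and above 2, and that of Irx4 held 1. Of the 12441 features with at least 20 UMIs in the library with more, 20.4% had an interval above 1 and 0.643% one above 2, a rule chosen after seeing the data. For Irx3 and Irx5 the difference was not seen in cells with at most 5% mitochondrial UMIs, where the ratios were 1.37 and 0.996. Within H2CKO, 460 ventricular-like cells held a GFP UMI. Their ratios to those without were 0.878 for Irx1 (0.737 to 1.04) and 0.740 for Irx2 (0.623 to 0.873). For Irx3 the ratio was 0.724 (0.560 to 0.925) and for Irx5 0.920 (0.706 to 1.19). This split cannot tell recombined cells from others. GFP was at 9.54 CPM in Control and 9.51 CPM in H2CKO ventricular-like cells. A GFP UMI was also held by 292 of the 1242 Control cells, which carry no Cre. The part of Cre in these levels was not tested.

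Irx4 alone of the 6 reached 20 CPM in ventricular-like cells, and it was not past 2-fold; 0.304% of 5589 features were past 2-fold higher and 0.93% lower. With a minimum of 5 CPM, chosen after seeing the data, 5 members reached it. Irx1 and Irx2, at log2 differences of 1.37 and 1.45 with 5 CPM added, were past 2-fold higher, against 0.273% of 9169 features past 2-fold higher and 0.742% lower. Irx3 and Irx5 were at 0.75 and 0.87 on that scale, which shrinks the difference of genes as low as these. The median difference over features was -0.19. Newly clustered cells of 1500 genes or more and a mitochondrial share of 5% or less gave 1.21 for Irx1 and 0.79 for Irx2. Irx2 was thus not past 2-fold in those cells.

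The share of ventricular-like cells with an Irx1 UMI was 5.23% (4.06 to 6.62) in Control and 20.4% (18.9 to 21.9) in H2CKO, although Control cells were deeper, with medians of 27660 and 18765 UMIs. At 5000 UMIs per cell the shares were 1.38% and 7.18%. The thinned shares were 1.05% and 7.12% for Irx2, 0.972% and 2.66% for Irx3, and 0.405% and 2.21% for Irx5. For Irx4 they were 23.3% and 23.4%. The erythroid background was at most 0.361% of cells for Irx1, Irx2, Irx3 and Irx5, at a median of 13230 UMIs in H2CKO, and all 4 H2CKO shares lay above it.

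In outflow-like and atrioventricular-canal-like cells the ratios of Irx1 to Irx5 came in another order than in ventricular-like cells. In the Hand1-led cluster the order was the same. Intervals were wider in each of these groups. In outflow-like cells Irx3 had 0.705 CPM (8 UMIs) in Control and 5.12 CPM (52 UMIs) in H2CKO, 7.26-fold higher (3.43 to 17.7), Irx1 had 2 and 31 UMIs, and Irx5 was 2.76-fold higher (1.59 to 4.99). Irx4 was 1.38-fold higher there (1.13 to 1.69) and 1.31-fold higher in the atrioventricular-canal-like cells (1.04 to 1.66). In outflow-like cells with at most 5% mitochondrial UMIs Irx4 was not higher, with a ratio of 0.752 (0.444 to 1.21). In the Hand1-led cluster Irx1 was 5.50-fold higher (2.51 to 13.7) and Irx4 had a ratio of 1.06 (0.905 to 1.24). The ratio of Irx3 in the atrioventricular-canal-like cells, 1.34, had an interval that holds 1 (0.690 to 2.72), as did that of Irx1 there, 2.99 (0.806 to 16.5), while Irx2 had 2 UMIs in Control and 22 in H2CKO.

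**Figure D3:**
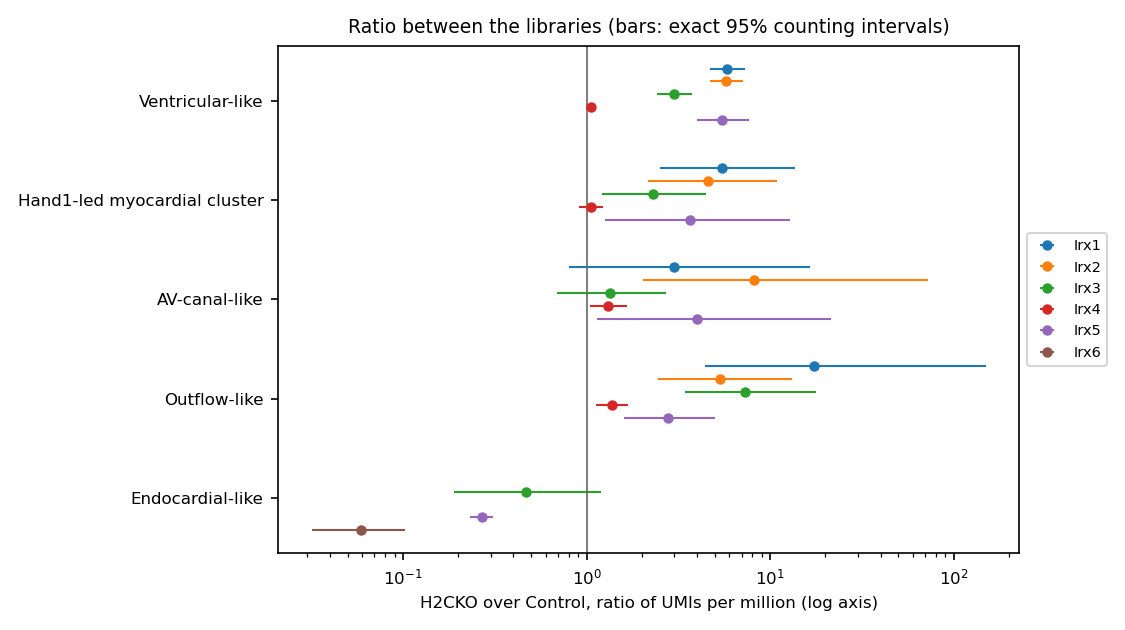
Ratio of the H2CKO level to the Control level (x axis, log axis) for each Irx gene with at least 10 UMIs over both libraries and some in each, in 4 myocardial groups and the endocardial-like cells (y axis); bars are exact 95% counting intervals and the line marks a ratio of 1. In ventricular-like cells Irx1, Irx2, Irx3 and Irx5 lie at 3.01 to 5.83 and Irx4 at 1.05, and in endocardial-like cells Irx5 and Irx6 lie well below 1.

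The ventricular-like cells fell into 6 clusters, and the members differed among them. Irx1 and Irx2 were higher in H2CKO in all 6, with intervals above 1 in each, from 2.75-fold to 12.9-fold for Irx1 and from 2.59-fold to 22.0-fold for Irx2. Irx3 and Irx5 had an interval above 1 in 4 of the 6. Irx4 had one above 1 in 2 of the 6, the Nppa-led cluster (1.12, 1.001 to 1.26) and the Kctd16-led cluster (1.25, 1.05 to 1.49). It ranged from 43.7 to 60.5 CPM over the Control clusters and from 50.7 to 63.5 CPM over the H2CKO clusters. No interval lay below 1 for any member.

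Irx3 and Irx5 shared a place in H2CKO. Both were highest in the H2CKO cells of the cluster led by Nppa, Cited1, Nppb, Bmp10 and Gja5, genes known for trabecular myocardium, where Irx3 had 19.8 CPM and Irx5 17.8 CPM. These were 4.74-fold (3.95 to 5.69) and 6.40-fold (5.18 to 7.92) above the other ventricular-like clusters of H2CKO together. In the Control cells of that cluster Irx3 had 3.92 CPM, 1.76-fold above the other clusters (1.11 to 2.74), and Irx5 1.18 CPM, a ratio of 1.06 (0.446 to 2.25), so the ratios between libraries there were 5.05 (3.46 to 7.62) and 15.1 (7.82 to 33.4). In the cluster led by Ramp1 and Klhl41, Irx5 had 0.778 and 0.616 CPM and Irx3 had 1.17 and 1.36 CPM, ratios whose intervals hold 1.

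Irx1 and Irx2 were placed otherwise. In H2CKO they were highest in the cluster led by Sox3 and Tnnt1 (20.3 and 23.8 CPM) and in that led by Kctd16 and Kcne1 (21.5 and 22.6 CPM), and lowest in that led by Ramp1 and Klhl41 (4.44 and 5.30 CPM). The Sox3-led cluster was also their highest in Control, at 7.39 and 9.19 CPM, and its ratios between libraries were the smallest of the 6 for both genes.

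**Figure D4:**
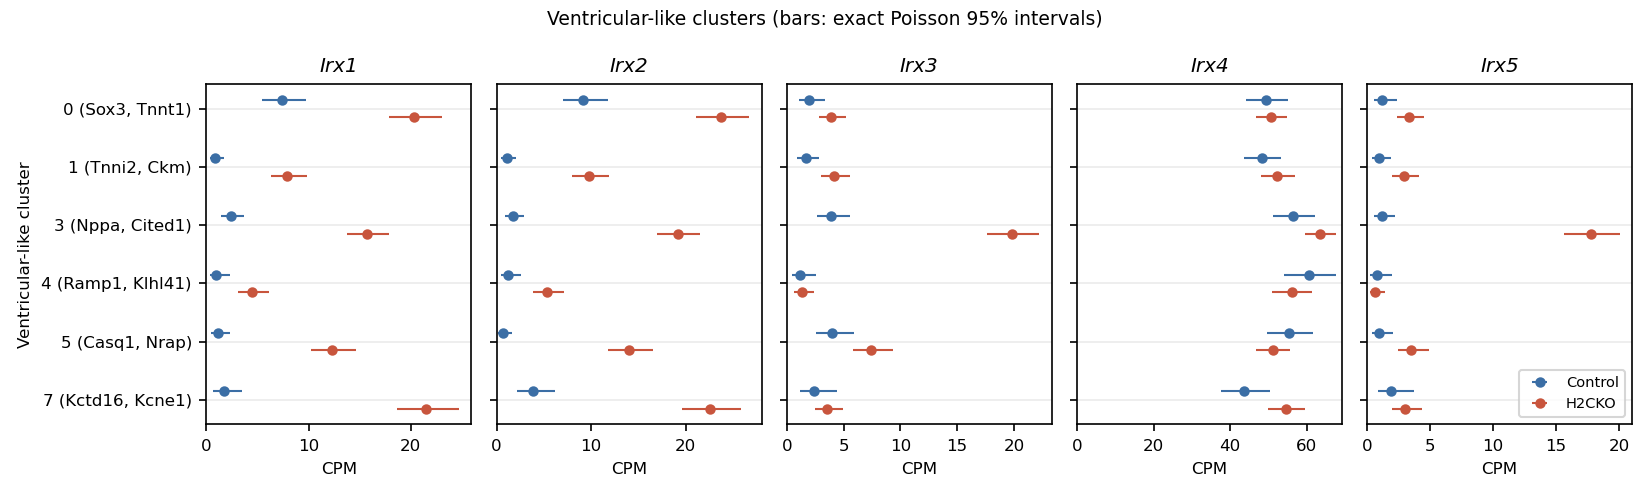
Levels of 5 Irx genes (x axis, CPM, a linear axis for each gene) in the 6 ventricular-like clusters, each labelled with leading genes (y axis), in Control (blue) and H2CKO (red); bars are exact Poisson 95% intervals. Irx3 and Irx5 stand out in H2CKO cells of the Nppa-led cluster at 19.8 and 17.8 CPM, Irx1 and Irx2 are higher in H2CKO in all 6, and Irx4 differs little.

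A score of trabecular minus compact genes divided the ventricular-like cells with at least 5000 UMIs of each library into 3 sets of equal size. Its trabecular genes were Nppa, Nppb, Bmp10, Cited1, Gja5 and Smpx. All but Smpx also lead the Nppa-led cluster, so the score is another view of that cluster and not separate support. From the compact to the trabecular set of H2CKO cells, Irx3 went from 3.33 to 14.9 CPM, 4.49-fold higher (3.46 to 5.91), and Irx5 from 1.96 to 11.9 CPM, 6.07-fold higher (4.35 to 8.68). Irx1 was 1.35-fold higher (1.15 to 1.59), Irx2 1.51-fold higher (1.30 to 1.75), and Irx4 had a ratio of 1.04 (0.957 to 1.12). In Control Irx3 was 2.12-fold higher in the trabecular set (1.24 to 3.73) and the interval of Irx5 holds 1 (0.849 to 4.37). The sets are ranges of a score: 607 of the 2895 H2CKO cells lay within 0.1 of a boundary, and the trabecular set was deeper (median 21912 UMIs against 18113).

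Some pairs of members were often found in the same cells, within and across the gene clusters. Of 602 H2CKO ventricular-like cells with an Irx1 UMI, 300 also held one of Irx2 (49.8%, 45.8 to 53.9), against 13.7% (12.3 to 15.1) of the 2352 without. Of 249 with an Irx5 UMI, 127 held one of Irx3 (51.0%, 44.6 to 57.4), against 7.25% (6.30 to 8.29) of the 2705 without. The cells with a UMI were deeper in both cases, with medians of 23458 against 18115 and of 29137 against 18201. In Control 20 of 65 cells with Irx1 held Irx2 (30.8%, 19.9 to 43.4), against 4.84% (3.69 to 6.23) of those without. Across the gene clusters, 142 of 323 H2CKO cells with an Irx3 UMI held one of Irx1 (44.0%, 38.5 to 49.6), against 17.5% (16.0 to 19.0) of those without. Irx4 and Irx1 share a gene cluster, and Irx1 was in 23.8% (21.9 to 25.8) of H2CKO cells with an Irx4 UMI and 15% (13.0 to 17.2) of those without, and in Control in 5.26% (3.88 to 6.96) and 5.16% (3.14 to 7.95). Over 22 sums of a cell group in a library, Irx1 and Irx2 correlated with Pearson's r of 0.96, Irx5 and Irx6 with 0.88, and Irx1 and Irx4 with 0.73. Pairs from different gene clusters reached 0.77 for Irx3 and Irx4, 0.75 for Irx2 and Irx3 and 0.74 for Irx1 and Irx3, while within one gene cluster Irx3 had 0.38 with Irx5 and 0.19 with Irx6. These sums share libraries and depth, and the values are descriptions.

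Ventricular-like cells with an Irx5 UMI held more endothelial marker UMIs than those without, and far fewer than endocardial-like cells. In Control the marker sum was 37.6 CPM in the 36 cells with an Irx5 UMI and 18.6 CPM in the 1206 without, against 3591 CPM in the endocardial-like cells. In H2CKO the 249 ventricular-like cells with an Irx5 UMI had 25.0 CPM of the 12 endothelial markers together and the 2705 cells without had 17.8 CPM, against 3297 CPM in the endocardial-like cells. In H2CKO Cdh5 was at 1.2 and 0.510 CPM and Emcn at 1.60 and 0.334 CPM, against 291.5 and 717.0 CPM in the endocardial-like cells. The marker sum over all ventricular-like cells was 19.4 CPM in Control and 18.7 CPM in H2CKO. Erythroid markers summed to 9436 CPM in Control and 21832 CPM in H2CKO ventricular-like cells and mesenchymal markers to 501.6 and 212.8 CPM, with none at 0. The 10 white blood cell markers summed to 8.88 and 48.4 CPM and the 6 smooth muscle markers to 4381 and 2760 CPM, also with none at 0. The part of these lists in the Irx values was not tested.

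The mitochondrial share differed between the libraries, and the members differed in how their ratios behaved when cells were divided by it. At most 5% was found in 712 of 1242 Control and 231 of 2954 H2CKO ventricular-like cells. In those cells Irx1 was still 5.27-fold (3.46 to 8.01) and Irx2 4.23-fold (2.84 to 6.28) higher in H2CKO. Irx3 had a ratio of 1.37 (0.703 to 2.49) and Irx5 of 0.996 (0.299 to 2.62), from 14 and 5 H2CKO UMIs, and Irx4 was lower, with a ratio of 0.785 (0.669 to 0.917). Only 12 of the 231 cells were of the Nppa-led cluster, which held 508 H2CKO cells in all. Above 5% the ratios were 2.76 (2.02 to 3.86) for Irx3, 6.02 (3.66 to 10.6) for Irx5 and 1.13 (1.04 to 1.22) for Irx4. The higher levels of Irx1 and Irx2 were therefore seen at either share. Those of Irx3 and Irx5 were seen above 5% and could not be shown at or under it. In outflow-like cells with at most 5% (282 and 131 cells) the ratio was 1.69 (0.289 to 7.05) for Irx3 and 1.04 (0.190 to 3.79) for Irx5, again from few UMIs. Irx4 had a ratio of 0.752 (0.444 to 1.21) in those cells and of 1.69 (1.26 to 2.29) in outflow-like cells above 5%. The part of the mitochondrial share in these values was not tested.

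**Figure D5:**
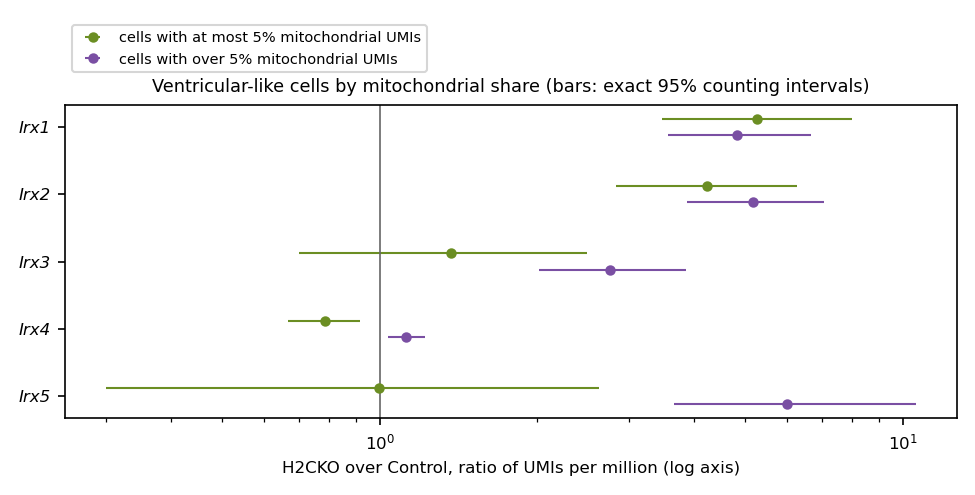
Ratio of the H2CKO level to the Control level (x axis, log axis) for 5 Irx genes in ventricular-like cells (y axis), for cells with at most 5% (green) and over 5% (purple) mitochondrial UMIs; bars are exact 95% counting intervals. Irx1 and Irx2 lie between 4.23 and 5.27 in both sets, Irx5 lies at 0.996 and 6.02, and Irx4 at 0.785 and 1.13.

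Irx2 and Irx4, neighbours on chromosome 13, differed in ventricular-like cells by ratios of 5.76 and 1.05, and sequence upstream of both genes is printed for that reason. The RefSeq promoter table (GRCm38.p6) matched 3 members, Irx2, Irx3 and Irx4, and the stretches are the first 232 bases of the entries of Irx2 and Irx4, which end before any annotated exon. Capitals mark the letters CANNTG, the E-box read by basic helix-loop-helix factors such as Hand2, which reads the same on both strands.
Irx2, chr13:72628570-72628801, plus strand: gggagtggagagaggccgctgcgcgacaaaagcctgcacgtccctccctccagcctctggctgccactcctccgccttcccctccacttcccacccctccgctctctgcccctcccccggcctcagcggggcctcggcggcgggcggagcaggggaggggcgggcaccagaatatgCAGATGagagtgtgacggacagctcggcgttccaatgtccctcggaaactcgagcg
Irx4, chr13:73260247-73260478, plus strand: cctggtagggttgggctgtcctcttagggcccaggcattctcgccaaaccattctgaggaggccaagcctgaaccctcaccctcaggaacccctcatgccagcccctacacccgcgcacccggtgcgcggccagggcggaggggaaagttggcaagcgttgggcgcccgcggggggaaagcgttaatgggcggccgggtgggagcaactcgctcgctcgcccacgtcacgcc
The Irx2 window held 1 E-box and the Irx4 window none. An E-box was in 63.8% of the 32851 promoter windows of that length. The letters ACANNTGT, a site read by Iroquois proteins that always holds an E-box within it, were in neither, and in 6% of all windows. Both windows were rich in G and C (69.4% and 68.1%) and held 19 CG pairs each. Hand2 itself was at 73.1 CPM in Control and 72.7 CPM in H2CKO ventricular-like cells. Whether either window has a part in the ratios was not tested.

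Factors known to act upstream of or beside the family were read from a list of 14. In endocardial-like cells 8 reached the minimum of 20 CPM, and 5 of them, with the deleted gene Hand2 among them, were past 2-fold lower and none higher, beside 9.37% of all features lower and 1.48% higher, with a median of -1.54 against -0.28 over all features. All but Gata4 of the 5 reached the minimum through their Control level alone, so the count and the median are descriptions. Besides Hand2 they were Tbx20 (102.2 to 10.6 CPM) and Tbx5 (34.4 to 1.28 CPM), T-box factors of the heart, Hey2 (20.7 to 1.82 CPM), a Notch target, and Gata4 (107.8 to 45.4 CPM), a zinc-finger factor. Tbx20 was past 2-fold lower in other groups as well: outflow-like (269.5 to 112.2 CPM), Wnt4-led (361.9 to 158.9 CPM), mesenchymal-like (526.0 to 247.9 CPM) and white blood cell-like cells (30.7 to 6.05 CPM). In ventricular-like cells 10 reached it and none was past 2-fold, with a median of -0.32 against -0.19. Nkx2-5, on which cardiac Irx4 depends, was at 152.3 and 197.9 CPM there.

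Of 9 genes reported as Iroquois targets, 6 reached the minimum in ventricular-like cells. Nppa, which encodes atrial natriuretic peptide, was past 2-fold higher in H2CKO (868.5 to 2579 CPM), and Gja1, which encodes connexin 43, and Myh6, which encodes alpha myosin heavy chain, were past 2-fold lower (179.8 to 86.4 and 1264 to 556.3 CPM), beside 0.304% of all features higher and 0.93% lower. Nppa was also past 2-fold higher in atrioventricular-canal-like (75.8 to 228.3 CPM) and outflow-like cells (70.3 to 167.2 CPM). It was not past 2-fold in the Hand1-led cluster (1385 to 2020 CPM), and in the shallow cardiomyocyte-like cells it was past 2-fold lower (1296 to 600 CPM). Gja5, which encodes connexin 40 and is raised by Irx3 in later hearts, was at 24.6 and 17.6 CPM. In endocardial-like cells 3 reached it, Nppa higher (23.3 to 70.6 CPM) and Gja1 and Myh6 lower (37.9 to 15.1 and 22.3 to 6.20 CPM), beside 1.48% of all features higher and 9.37% lower. These Nppa levels are near those of cells that should lack the gene: erythroid cells had 20.9 CPM in Control and 68.1 CPM in H2CKO, and white blood cells 16.5 and 58.1 CPM. In mesenchymal-like cells Nppa was at 26.2 CPM in Control and 84.2 CPM in H2CKO. Myh6 was likewise lower in mesenchymal-like cells (31.7 to 8.0 CPM). The endocardial-like values of both are thus not read as endocardial expression. The 12 cardiomyocyte markers summed to 1086 and 1060 CPM in the endocardial-like cells.

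Of 12 neighbours of the Irx genes 9 were among the features, and none of the 3 that reached the minimum in ventricular-like cells or the 4 in endocardial-like cells was past 2-fold, too few genes to tell from the shares of all features given above. Fto, the neighbour of Irx3 whose introns are known to hold Irx3 enhancers, was at 31.3 and 25.9 CPM in the former and 41.5 and 22.4 CPM in the latter, 1.85-fold lower (1.38 to 2.47). Ndufs6, a subunit gene of respiratory complex I beside Irx4, was at 451.8 and 665.8 CPM in ventricular-like cells. Of 12 other TALE homeobox genes, some of them also in the upstream list, 5 reached the minimum in ventricular-like and 7 in endocardial-like cells, with none past 2-fold.

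The genes most like each member over the 22 sums, among 5295 features with at least 50 CPM in 1 sum, are given with their r, as a description. For Irx4 they were Fitm1, Kcng2 and Adprhl1 (r of 0.99, 0.99 and 0.98). For Irx5 they were Sost, Klhl4 and Acer2 (0.92, 0.88 and 0.85), and for Irx6 Tmem100, Gldc and Sost (0.82, 0.80 and 0.79). Irx1 was most like Nppa, Hopx and Igfbpl1 (0.78, 0.76 and 0.76), Irx2 like Ndufs6, Hopx and Myoz2 (0.76, 0.75 and 0.75), and Irx3 like Tmem163, Kcng2 and Myoz2 (0.82, 0.82 and 0.82).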

How the data were processed

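Per the submitters' processing notes, the tools were Cell Ranger 5.0.1 and Seurat 4 and the build GRCm38.p6. The authors deposited whole UMI counts per feature and barcode, and a UMAP coordinate table (a score with no unit) for 5408 Control and 6232 H2CKO barcodes, used here to pick the embedded cells for 1 alternative. Of 22401 features 22285 matched a symbol. A barcode needed 500 genes or more and a mitochondrial share of 10% or less; Scrublet doublets were left out (921 in Control; in H2CKO the caller marked 0, so the top 5%, 607, was taken). Cells were clustered with scanpy 1.11.5 and leidenalg 0.10.2, without Irx genes, Hand2, GFP, globin or mitochondrial genes, and named from marker lists (some ventricular-like clusters by list median alone, with no marker among their leading genes); the rule that a first-level name needs a marker among the leading genes, and the removal of cell-cycle genes before subclustering, were set after seeing the data. A cluster of shallow cardiomyocyte-like cells (median 1579 UMIs) was kept apart. Counts were summed per group and library. CPM intervals are exact Poisson, shares exact Clopper-Pearson and ratios exact conditional, at 95%, and cover counting error only. Scripts were tested on simulated data. The members and lists were chosen with earlier results of these data known. All 6 members were described; of the listed genes, those past 2-fold were named, with Hand2, Nkx2-5, Gja5 and Gja1, and the 3 features most like each member; Fto, Ndufs6, Cdh5 and Emcn were named after their values were seen. Alternatives were other cell filters, clusterings, depths, centrings, pseudocounts and minimums.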

Additional observations from a re-analysis of the deposited data

Results flagged for a closer look

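Irx5 differed between the libraries in opposite directions in different cells, with each counting interval on its own side of 1. The H2CKO level was 0.268 times the Control level in endocardial-like cells and 5.48 times it in ventricular-like cells, and 2.76 times in outflow-like cells. In cells with at most 5% mitochondrial UMIs the opposite direction was not seen: the ratio was 0.996 (0.299 to 2.62) in ventricular-like and 1.04 (0.190 to 3.79) in outflow-like cells, and 0.272 (0.227 to 0.324) in endocardial-like cells. The difference between these ratios was not tested, since each rests on 1 library per genotype.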

How the results depend on the processing

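Of 77 values of 7 member ratios under 11 alternatives, 46 stayed within the counting interval of the reported value and 74 kept its sign. The log2 differences for Irx1, Irx2, Irx3, Irx4 and Irx5 in ventricular-like cells were 1.21, 0.79, 0.13, -0.025 and 0.047 in newly clustered cells of 1500 genes or more and a mitochondrial share of 5% or less, which left 763 Control and 181 H2CKO cells, and 1.18, 1.07, 0.16, -0.32 and -0.0012 in the classified cells with at most 5%, an alternative added after seeing the data; Irx4 above 5% was at 0.16. With 1 CPM added they were 2.14, 2.18, 1.29 and 1.75 for Irx1, Irx2, Irx3 and Irx5, and -3.65 for Irx6 in endocardial-like cells. Centring on the median feature gave 1.56, 1.64, 0.94, 0.26 and 1.06 for the 5, and -1.53 for Irx5 in endocardial-like cells; centring by gene span gave 1.00 and -1.56 for Irx5 in the ventricular-like and the endocardial-like cells. Classes set cell by cell from marker levels gave 0.64 for Irx5 in ventricular-like cells and -1.11 and -1.51 for Irx5 and Irx6 in endocardial-like cells. Thinning gave 1.58 for Irx2 and 0.75 for Irx5 in ventricular-like cells, and -2.27 for Irx6. Irx4 was at 0.14 in the embedded cells, where the one endothelial-like cluster, of 121 Control and 453 H2CKO cells, was taken as endocardial-like. A minimum of 100 CPM left 10 features past 2-fold higher and 21 lower in ventricular-like cells, against 17 and 52, and 36 and 164 in endocardial-like cells, against 94 and 594. Beyond fewer cells or features, the cause was not tested. No paired analysis was possible because each genotype is 1 library. Cell number limits all members in the 2 atrial-like cells of H2CKO and the 10 vascular endothelial-like cells of Control.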
